A study of Mus musculus with 7 samples.

Results

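The untreated skin of control-fed HR-1 mice was described from 3 samples, the control-fed channel of the 3 arrays taken before detergent, out of 14 channels on 7 arrays that each carry a pair of samples in different dyes. Every gene with a probe was taken, 27670 genes in all, and genes were ordered by the mean log2 intensity of their spot in the 3 samples. HR-1 is a hairless mouse strain, and the labels give all animals as males of 5 weeks. Control-fed mice had received AIN-93G, a purified rodent diet, without glucosylceramide (GC), a sphingolipid of plants and milk, for 12 days. The groups set beside them were GC-fed skin before detergent (3 samples, the other channel of the same arrays, the same diet with GC added for 12 days) and control-fed skin after detergent (4 samples, 14 days of diet, with 10% sodium dodecyl sulfate, SDS, put on the right dorsal skin on each of the last 2 days). The labels call the samples biological replicates and do not say whether each was a single animal or a pool, so every spread given here is a spread between these samples. Control-fed sample 1 was labelled with the dye Cy5, and samples 2 and 3 with Cy3. All 3 arrays lay on the same slide, and the 4 arrays after SDS on another.

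Whole skin is a layered tissue. Basal keratinocytes divide on the basement membrane, leave it, switch keratins and end as cornified cells sealed by a protein envelope. Below lies a dermis of fibroblasts and collagen, then fat, and in the mouse a thin sheet of skeletal muscle, the panniculus carnosus. Hair follicles cycle between growth, regression and rest, and build the hair shaft and its inner root sheath only while they grow. In mice that lack a working Hr gene the first coat is lost and the follicles break down into utricles and cysts.

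The level of a gene is a log2 intensity, the brightness of its spot on a log scale where 1 unit is a doubling. Probes bind their targets unequally, so the order is an order of spot brightness and not of transcript number. Over all 27670 genes the median level was 7.87, the 95th percentile of the levels 13.01 and the highest level 17.87. A spot was called well above background by the scanner software's own flag. By that flag 14528 genes (52.5%) were well above background in all 3 samples, and 10712 (38.7%) in none. The remaining genes were well above background in 1 or 2 samples, among them a few bright genes with a spot left out for an outlier flag. Genes above background in all 3 samples had a median level of 9.96, while those in none lay between 6.57 and 7.57 with a median of 7.17, which is the floor of these arrays.

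Detection differed between the samples. Sample 1 had 16745 genes well above background, sample 2 had 14932 and sample 3 had 14923. Sample 1 alone accounted for 1647 genes that neither of the others detected, against 102 for sample 2 and 99 for sample 3. The share of gene spots well above background was 60.2% in sample 1, the Cy5 sample, and 52.6% and 52.7% in the Cy3 samples. After SDS the control-fed Cy5 samples had 58.2% and 60% and the Cy3 samples 51.1% and 51.4%, so the higher share went with the dye in both sets of arrays. Across the 16931 genes measured in every sample, the levels of samples 1 and 2 correlated at r = 0.992, samples 1 and 3 at 0.995 and samples 2 and 3 at 0.994. These are correlations across genes, which are not independent replicates.

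**Figure D1:**
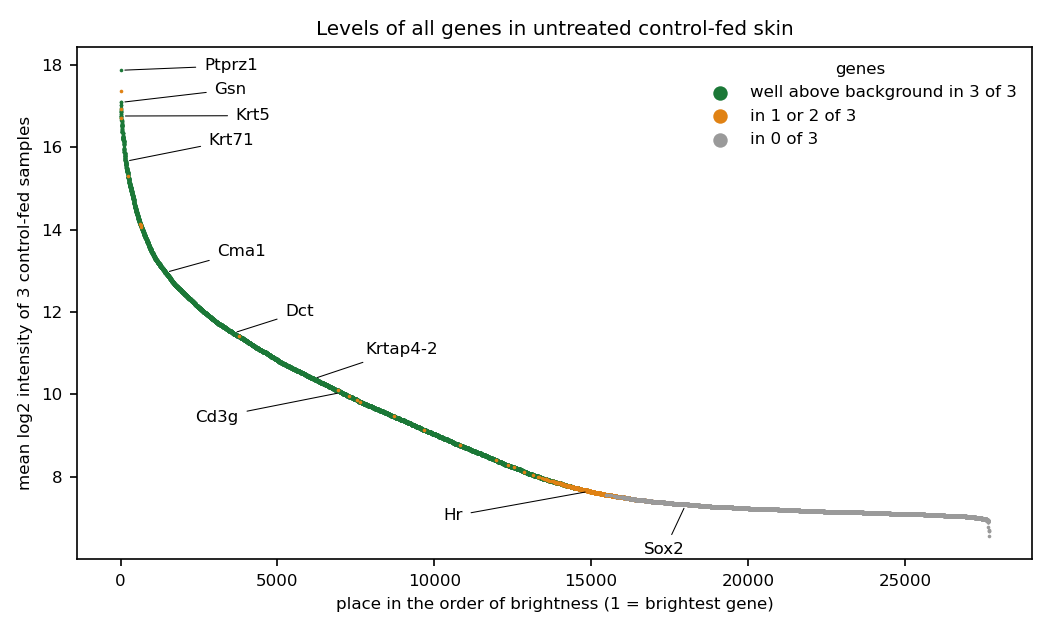
Mean log2 intensity of the 3 control-fed samples (vertical axis) against the place of each of 27670 genes in the order of brightness (horizontal axis), with points coloured by the number of samples in which the gene was well above background. The curve falls steeply from Ptprz1 at 17.87 and flattens onto a floor between 6.57 and 7.57, where the gene Hr lies just above and Sox2 on it.

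Sequence upstream of the genes is shown first for those whose levels varied most between the samples and for bright epidermal genes, because a short sequence was more frequent among the hair genes than over the array. Promoter windows of 250 bases before the annotated start were taken from RefSeq (build GRCm38.p6), and 15453 of the 27670 genes matched a window by symbol. The letters TATAAA, the core of the TATA box, were searched on the gene's strand, and with their reverse complement TTTATA on either strand (matches of the pair can overlap). Below, the last 80 bases before the start are printed 5′ to 3′ on the gene's strand, with TATAAA in capitals.
Krt71 (inner root sheath keratin, chr15:101743098-101743177, minus strand): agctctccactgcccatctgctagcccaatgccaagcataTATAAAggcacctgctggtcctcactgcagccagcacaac
Krt27 (inner root sheath keratin, chr11:99351119-99351198, minus strand): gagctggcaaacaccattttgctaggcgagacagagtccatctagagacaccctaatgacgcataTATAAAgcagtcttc
Krtap16-3 (keratin-associated protein, chr16:88962874-88962953, minus strand): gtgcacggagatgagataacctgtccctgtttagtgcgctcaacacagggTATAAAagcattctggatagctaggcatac
Krtap19-3 (keratin-associated protein, chr16:88878039-88878118, minus strand): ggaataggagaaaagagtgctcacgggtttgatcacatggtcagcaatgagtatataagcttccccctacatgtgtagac
Lor (loricrin of the cornified envelope, chr3:92083143-92083222, minus strand): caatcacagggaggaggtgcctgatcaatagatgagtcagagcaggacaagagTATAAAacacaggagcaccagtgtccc
Krt5 (basal keratin, chr15:101712906-101712985, minus strand): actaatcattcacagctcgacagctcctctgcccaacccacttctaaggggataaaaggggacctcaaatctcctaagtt

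TATAAA began 40 bases before the start in Krt71, 15 in Krt27, 30 in Krtap16-3 and 27 in Lor, and these exact letters were not in the printed stretch of Krtap19-3 or Krt5. Among all genes on the array with a window, 1235 of 15453 (7.99%) held TATAAA on the gene's strand, and 12.4% on either strand. The share was 21 of 34 (61.8%) for the 40 genes of widest spread described further on, and 4 of 31 (12.9%) for the 40 brightest. By gene class it was 30 of 38 keratin-associated protein genes (78.9%), 13 of 30 keratins (43.3%), 11 of 26 genes of the cornified envelope list (42.3%) and 0 of 32 cytosolic ribosomal protein genes of the marker list. Genes well above background in all 3 samples held it in 5.83% and genes in none in 13.3%. Keratin-associated protein genes lie in clusters of related copies, so their windows are not independent, and a match of letters is a description and not a binding site.

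The brightest genes of untreated skin were those of the ribosome, the epidermis, the dermis and fat. Of the 40 brightest genes with an ordinary symbol, 21 encode proteins of the cytosolic ribosome (Fau among them), 3 are epidermal keratins, 2 belong to the cornified layer, and the rest include dermal, adipocyte and cytoskeletal genes. The 40 brightest of the 27637 genes with a value in every sample, whatever their name, held 7.8% ± 1.32 (SD, n = 3) of the summed intensity of all genes, the 100 brightest genes 15.9% ± 2.26 (SD, n = 3) and the 1000 brightest 54.9% ± 1.68 (SD, n = 3). Among the same 27637 genes, the 91 whose symbol begins like that of a cytosolic ribosomal protein held 8.60% ± 1.24 (SD, n = 3). This match by symbol was not cleared of other genes with such symbols, such as kinases. The 40 genes of the ribosomal marker list with a value in every sample held 5.06% ± 0.79 (SD, n = 3).

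Ribosomal protein genes made the longest run near the top. Among those measured in every sample, Rps14 stood at 17.78, 16.52 and 16.78 in samples 1, 2 and 3. Rpl37a followed at 17.36, 16.75 and 16.95. Fau, which encodes a ubiquitin-like protein fused to a ribosomal protein, was at 17.29, 16.65 and 16.82. In each of these sample 1 was the highest and sample 2 the lowest. The marker list of 44 ribosomal protein genes had a median level of 16.24, and none of the 44 was undetected. Rps23 had the second highest mean, 17.36, but that value came from sample 3 alone, because its spots in samples 1 and 2 carried an outlier flag and were left out; with flagged spots kept its mean was 17.22 ± 0.34 (SD, n = 3).

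Epidermal genes stood among the ribosomal ones. Krt5 and Krt14 encode the keratin pair of basal keratinocytes. Krt5 was at 16.96, 16.81 and 16.50 and Krt14 at 16.81, 16.47 and 16.29. Krt10, a keratin of the suprabasal layers, was at 17.05 in sample 1 and 16.09 in sample 3, with its spot left out in sample 2. Lor encodes loricrin, the main protein of the cornified envelope, and read 17.24, 16.58 and 16.76. Lce1d, a late cornified envelope protein, read 16.89, 16.22 and 16.63, and Cst6, a cysteine protease inhibitor of the cornifying layers, 16.75, 16.36 and 16.47. The values of these genes overlapped one another within their spread, so their order among themselves was not resolved.

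Genes of the dermis and of fat stood beside them. Gsn encodes gelsolin, which cuts actin filaments, and was at 17.42, 16.85 and 17.01. Col1a2, a chain of type I collagen, was at 17.00, 16.54 and 16.17. Cfd encodes adipsin, a complement protease secreted by fat cells, and read 16.89, 16.38 and 16.87. Fabp4, the fatty acid carrier of adipocytes, took place 40 among genes with an ordinary symbol at 16.86, 16.34 and 16.36, a mean of 16.52. The next gene, Tnni2, a troponin of fast skeletal muscle, had a mean of 16.51, so the limit of 40 separates genes that did not differ beyond their spread. Aldoa, a glycolytic enzyme abundant in muscle, was at 17.60, 16.98 and 16.76, and its second probe gave a mean of 16.99. Apoe, a lipid carrier, was at 16.93, 16.49 and 16.60.

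The brightest spot was not matched by other probes of its gene. A probe named for Ptprz1, a receptor-type phosphatase known mainly from the nervous system, read 18.23, 17.06 and 18.33, a mean of 17.87 ± 0.71 (SD, n = 3). The other 3 probes of Ptprz1 had means of 7.16, 7.26 and 8.30, and 2 of them were not well above background in any sample. A similar gap occurred for Pigt, an enzyme of membrane anchor synthesis, with probe means of 16.96 and 7.65, and for Cst6, with 16.53 and 7.27. Of the 40 brightest genes, 16 had more than 1 probe, and in 10 of these the probes differed by over 3 log2 units. Which probe reports the transcript was not tested.

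Most genes near the top were brightest in sample 1. It was the only Cy5 sample of the 3, so dye and sample cannot be told apart among them. Of the 40 brightest genes, 33 were measured in all 3 samples, 29 of these were highest in sample 1, the Cy5 sample, and 26 were lowest in sample 2. On the ribosomal list the median deviation from a gene's own mean was 0.22, −0.19 and −0.03 in control-fed samples 1, 2 and 3. In the GC-fed samples on the other channel of the same arrays it was −0.24, 0.17 and 0.05. Scaling between arrays acted on the average of both channels, so opposite deviations in them are not independent. With the fitted dye term removed, 20 of 36 ribosomal genes were highest in sample 1, against 33 of 40 before; in the authors' deposited gene-level intensities 27 of 43 were highest in sample 3. The limma fit over all channels held 30 of the 40 brightest genes. Of these 30, 9 were called for dye at an adjusted p under 0.05, and 36 genes of all 17064 fitted.

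Marker lists placed the cell types of the tissue. All 14 basal keratinocyte genes and all 22 suprabasal and granular genes were well above background in 3 of 3 samples, with median levels of 12.66 and 14.97, against 7.87 for all genes. Transcription factor Trp63, needed for stratified epithelia, was at 12.84, 12.79 and 12.57. Among suprabasal genes Sbsn, a secreted protein of the upper epidermis, had a mean of 16.43 and Krt1, the partner of Krt10, 15.87. On the cornified envelope list 28 of 29 genes with a probe were detected, with a median of 13.71; Flg, the filaggrin precursor, had a mean of 14.89 and Ivl, involucrin, 10.37. Sprr3, a small proline-rich protein of internal squamous epithelia, was the exception at 7.17, 7.05 and 7.21.

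Keratins on the wound list, known from wounded or hyperproliferative epidermis, were detected before any detergent. Which part of the skin made them was not tested. Krt17, which also belongs to the outer root sheath, stood at 16.10, 16.40 and 16.15, among the 100 brightest genes. Krt16 was at 14.03, 14.13 and 13.36, Krt6a at 12.81, 13.14 and 12.59, and Krt6b at 10.73, 11.25 and 10.44. S100a9, a subunit of calprotectin, was at 13.03, 13.90 and 12.53. Of the 9 wound list genes with a probe 8 were highest in sample 2, Defb3 being highest in sample 3.

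**Figure D2:**
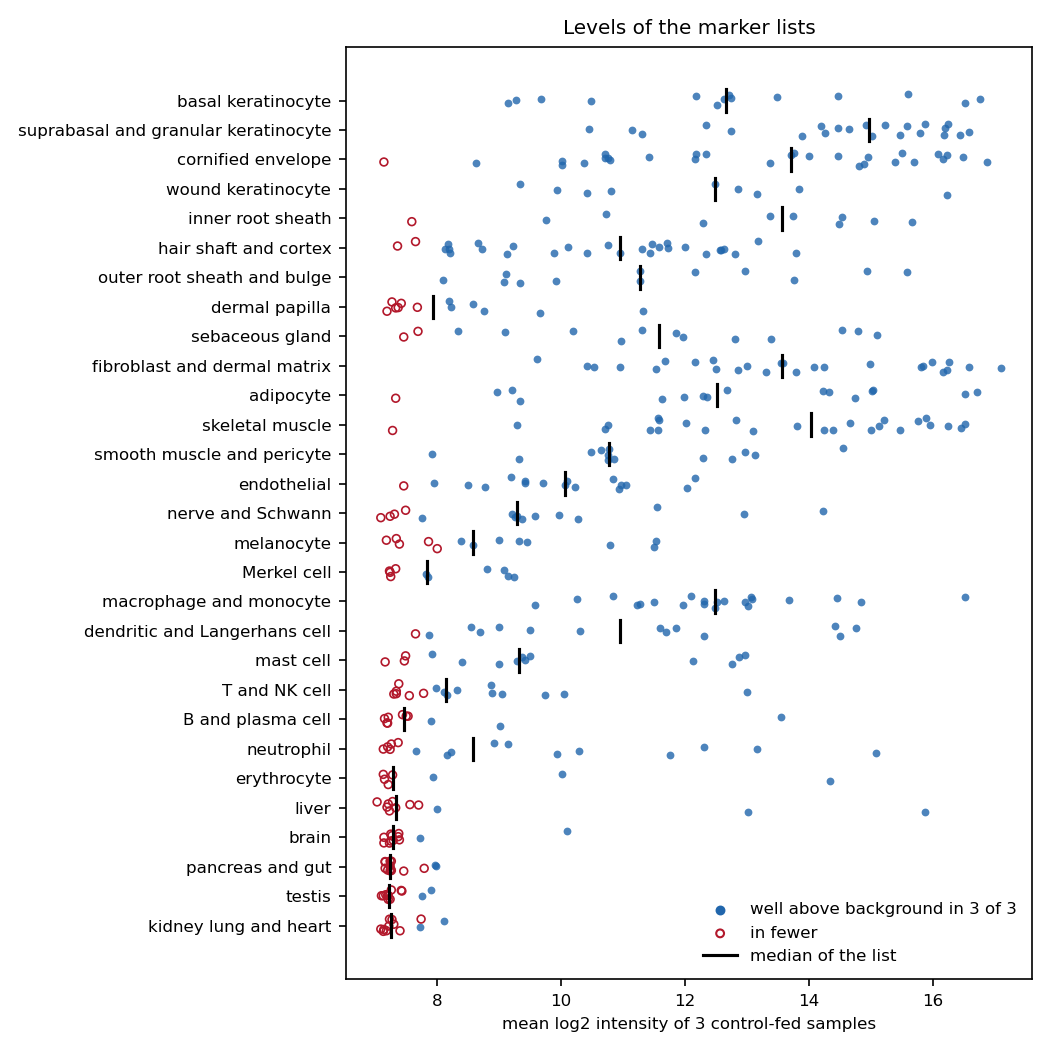
Mean log2 intensity in the 3 control-fed samples (horizontal axis) of the genes with a probe on the cell type and organ lists, 1 row a list; filled blue points were well above background in 3 of 3 samples, open red points in fewer, and the black bar is the list's median. The basal, suprabasal, cornified, fibroblast, adipocyte and skeletal muscle lists have medians from 12.51 to 14.97, while the brain, pancreas and gut, testis, and kidney, lung and heart lists sit near the floor with medians from 7.23 to 7.28.

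The dermis, the fat and the muscle sheet were all represented. All 26 fibroblast and matrix genes were detected, with a median of 13.56, led after Gsn and Col1a2 by Dcn, the collagen-binding proteoglycan decorin (mean 16.25), and Sparc, a matrix protein (16.23). Of 16 adipocyte genes 15 were detected, with a median of 12.51, among them Adipoq, adiponectin, at 14.38, 14.17 and 14.42, and Lep, leptin, at 9.27, 9.12 and 9.23; Adig, adipogenin, was undetected. Of 26 skeletal muscle genes 25 were detected, with a median of 14.03, and Acta1, skeletal actin, was at 16.76, 16.39 and 16.17. Only Myh7, the slow myosin heavy chain, was undetected on that list (7.25, 7.13 and 7.46), while the fast-fibre genes Tnni2, Tnnc2 and Myl1 had means of 16.51, 16.24 and 15.94. In bulk skin, a lower signal from fewer cells of a type cannot be told apart from less RNA per cell.

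Appendage and minor cell types gave a graded picture. On the sebaceous list 12 of 14 genes were detected in all samples, led by Scd1, a fatty acid desaturase (15.09 ± 0.12, SD, n = 3). The outer root sheath and bulge list had 12 of 12. Lgr5 (9.23, 9.76 and 9.04) was highest in sample 2 and Cd34 (15.04, 14.77 and 14.98) lowest in it. Which cells of the skin gave these signals was not tested. The dermal papilla list had 6 of 12, and Sox2, Rspo3, Rspo4, Hey2 and Wnt5a were not well above background in any sample. The Merkel cell list had 6 of 10, Krt20 being the brightest at 9.24 ± 0.16 (SD, n = 3). The defining transcription factor Atoh1 was undetected at 7.23, 7.21 and 7.26, as were Sox2, Snap25 and Vil1. The melanocyte list had 8 of 13: Mlana was at 11.47, 11.52 and 11.60, Dct, a melanin synthesis enzyme, at 11.59, 12.16 and 10.72, and Tyr, the tyrosinase that starts melanin synthesis, was undetected at 7.16, 7.25 and 7.14. Of 17 endothelial genes 16 were detected (median 10.06), the lymphatic receptor Flt4 being the exception, and 11 of 15 nerve genes (median 9.29).

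Among leukocyte lists that of macrophages and monocytes had the highest median level. All 21 macrophage and monocyte genes were detected with a median of 12.48: Lyz2, lysozyme, was at 16.69, 16.33 and 16.50, Ctss, a lysosomal protease, at 14.82, 14.75 and 14.97, and C1qa, a complement subunit made by tissue macrophages, at 12.81, 12.86 and 13.54. Of the 21, 15 were highest in sample 3 and 17 were lowest in sample 1, with median deviations of −0.19, −0.07 and 0.20. Langerhans cell genes were detected, with Cd207, langerin, at 11.77, 11.49 and 11.81. Of 14 mast cell genes 11 were detected in all samples, with a median of 9.32. The brightest mast cell proteases were steady between samples: Cpa3 was at 12.84, 12.90 and 12.83 and Cma1 at 12.98, 12.85 and 13.07. The protease Tpsb2 had a mean of 9.41, while Tpsab1 and Mcpt1, a mucosal mast cell protease, were undetected. T cell genes were low but measurable, Cd3g at 10.33, 9.71 and 10.10, and Cd8a, Ncr1, Klrb1c and Gzmb were undetected. Of 10 B and plasma cell genes 3 were detected in all samples, and the B cell factor Pax5 in none.

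The neutrophil list split by gene, with 11 of 16 genes detected in all samples and 5 in none. The granule genes Elane, Ngp, Camp, Ltf and Mmp8 were undetected, with means from 7.13 to 7.37. The receptors Csf3r and Cxcr2 were just above the floor, with means of 8.15 and 7.65. Stfa3, a stefin that also occurs in stratified epithelia, was at 15.39, 14.79 and 15.07. Mpo, myeloperoxidase, was at 11.29, 11.36 and 12.60. S100a9 and S100a8, which are also on the wound list, had means of 13.15 and 9.93. Mmp9 and Padi4 were detected too, with means of 9.14 and 10.29. In the erythrocyte list Hba-a1, a haemoglobin chain, was at 14.47, 14.08 and 14.46, and 4 of 7 genes with a probe were undetected.

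Genes of other organs set the lower limit. The brain, testis, and kidney, lung and heart lists each had 2 of 12 genes well above background in all samples, the pancreas and gut list 2 of 14, and the medians lay between 7.23 and 7.28. In the liver list 3 of 11 were detected in all samples, among them Hp, haptoglobin, which is also made by adipocytes, at 15.81, 15.93 and 15.86, and Cyp2e1, a cytochrome P450, at 13.05, 12.62 and 13.39, while Apoa1, Ttr and Fga were undetected. The Y chromosome genes Ddx3y (10.88, 10.70 and 10.59) and Eif2s3y (11.85, 11.26 and 11.27) were well above background in every sample of these males, and Sry and Usp9y in none.

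The hairless gene itself lay just above the floor. Hr, which encodes a corepressor of the vitamin D receptor in the follicle, read 7.64, 7.66 and 7.66, and its only probe was well above background in 1 of the 3 samples. Vdr, the vitamin D receptor itself, was well above the floor at 12.73 ± 0.28 (SD, n = 3). The files do not say which part of the Hr transcript the probe covers, and the allele was not examined here.

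Most genes of the sensory receptor families were undetected. Among genes with an ordinary symbol, 12503 of 18227 (68.6%) were detected in all 3 samples and 4358 (23.9%) in none. Of 906 olfactory receptor genes 789 (87.1%) were undetected and 20 (2.21%) were well above background in all samples. Vomeronasal receptors were undetected in 119 of 128 (93%) and bitter taste receptors in 13 of 13. Late cornified envelope genes lay at the other end, with 14 of 14 detected and a median level of 15.57. Keratins were detected in 37 of 45 and keratin-associated proteins in 37 of 41. By the scanner's more lenient flag, a signal positive and significant over background, 6244 genes were undetected in place of 10712.

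Most genes varied little between the 3 samples. The median SD over the 16931 genes measured in every sample and well above background in at least 1 was 0.09 log2 units. An SD over 0.5 occurred in 227 genes (1.34%), and an SD over 1 in 39. Of those 39, 24 were keratins or keratin-associated proteins, and 25 had sample 2 as the sample farthest from the others. Without sample 2 the count over 1 was 17, and without sample 3 it was 65. The count rose to 393 without loess and between-array normalization and to 441 on the scanner's processed signal; under the latter 35 of the 40 widest genes with an ordinary symbol still had an SD over 1, and the 40 widest under that setting had a median level of 7.48, close to the floor. Without loess and between-array normalization 9 of the 40 had an SD over 1 and all 40 an SD over 0.5, beside a median SD of 0.56 over all genes.

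The hair follicle's products were the most variable group. The 40 widest genes with an ordinary symbol comprised 18 keratin-associated proteins, which fill the hair shaft, 9 keratins, Tchh (trichohyalin), Padi3 (an enzyme that modifies it), Prr9 and 10 other genes. These genes were chosen for their spread, so their values are a description. Of the 40, 34 were highest in sample 2 and 26 lowest in sample 1. Place 40 was Slc4a7 with an SD of 0.98, and the next gene, S100a3, a calcium-binding protein of the hair cuticle, had 0.97. The 39 measured of 41 keratin-associated protein genes had a median SD of 0.95. The 38 measured of 45 keratins had 0.46, beside 0.09 for all genes measured.

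Inner root sheath genes spanned about the same range in step. Krt71 was at 14.41, 17.01 and 15.57 in samples 1, 2 and 3, a 6.04-fold difference between the highest and the lowest. Tchh was at 13.82, 16.54 and 14.75, a 6.56-fold difference. Krt25, Krt27 and Krt28, type I keratins of the same sheath, were at 13.35, 15.85 and 14.38, at 13.25, 15.82 and 14.35, and at 12.56, 15.07 and 13.58. In every one of them sample 2 was the highest, sample 3 lay between and sample 1 was the lowest. All 10 genes of the inner root sheath list had the same highest and lowest sample, while without loess and between-array normalization 7 of 10 were highest in sample 2 and 8 of 10 lowest in sample 3. Gata3, a transcription factor of the sheath that interfollicular cells also express, had the smallest SD on the list, 0.04, at 12.23, 12.31 and 12.29. The list held 0.13%, 0.72% and 0.26% of the summed intensity in samples 1, 2 and 3.

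**Figure D3:**
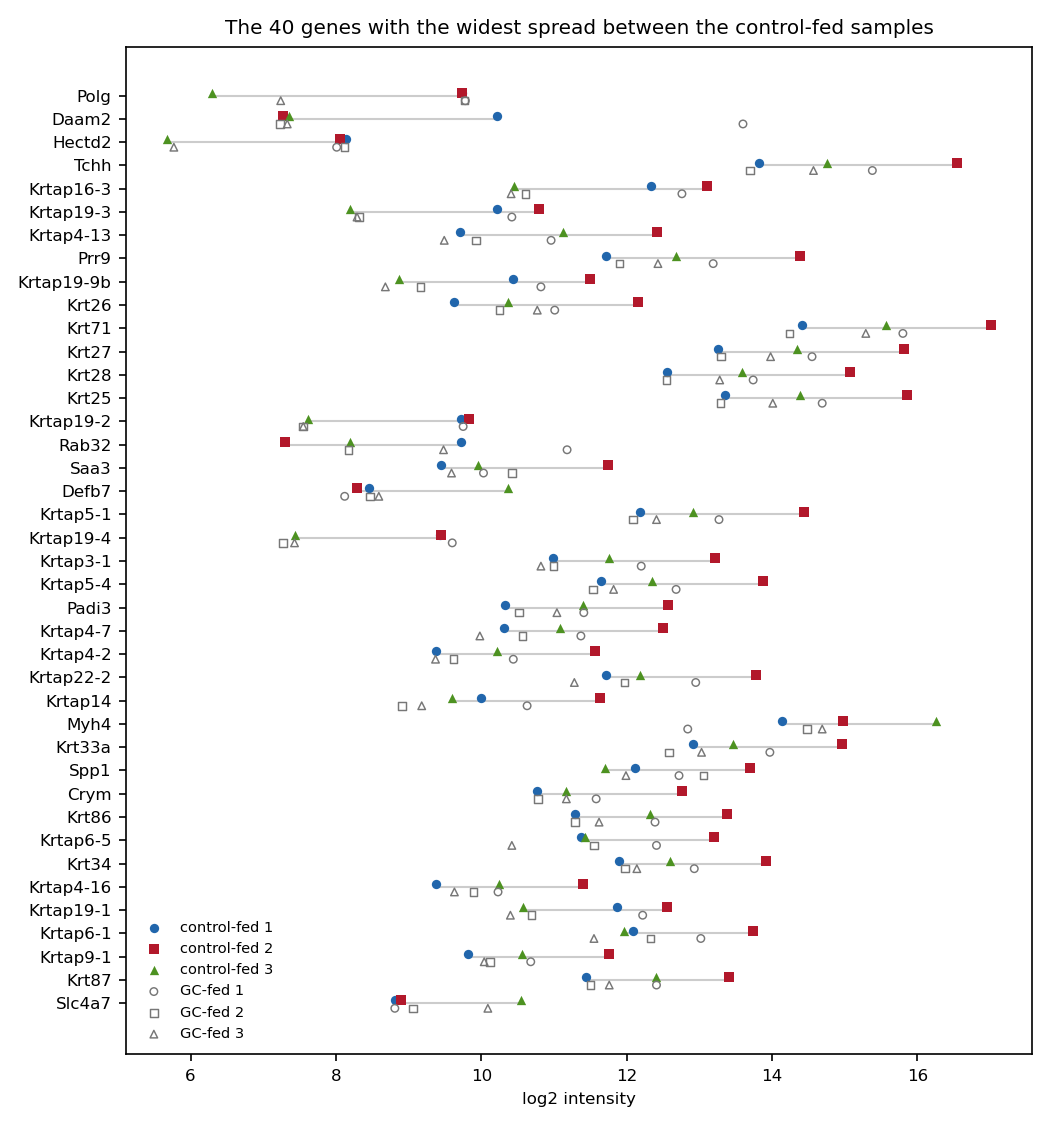
Log2 intensity (horizontal axis) of the 40 genes with the largest SD between the 3 control-fed samples, 1 row a gene in order of SD from 1.98 (Polg) to 0.98 (Slc4a7); filled symbols are control-fed samples 1 to 3, joined by a grey line over their range, and open symbols the GC-fed samples of the same arrays. Sample 2 (red squares) is the highest of the control-fed samples in 34 rows.

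Hair shaft genes moved with the inner root sheath. The list of hair shaft and cortex genes had 27 of 29 detected, with a median level of 10.95, and 28 of the 28 measured were highest in sample 2 (20 of 28 without loess and between-array normalization), while 22 were lowest in sample 1 and 6 in sample 3. Krt33a, a type I hair keratin, was at 12.91, 14.96 and 13.46, Krt86, a type II hair keratin, at 11.29, 13.38 and 12.32, and Krt34 at 11.90, 13.91 and 12.60. Krtap4-13 was at 9.71, 12.42 and 11.13 and Krtap5-1 at 12.19, 14.44 and 12.91. Transcription factors that act in the follicle matrix varied less, with sample 2 again the highest: Lef1 was at 8.92, 9.67 and 8.81, Msx2 at 8.30, 9.27 and 8.42, Foxn1 at 7.98, 8.54 and 8.08 and Hoxc13 at 7.98, 8.44 and 8.09. The median deviation of the shaft list was −0.75, 1.00 and −0.23, and that of the inner root sheath list −1.13, 1.32 and −0.15. Sample 2 had the highest median deviation under all 9 alternative scalings and sources tried, but without loess and between-array normalization samples 1 and 3 changed places, at −0.17 and −0.34 for the shaft list and −0.41 and −0.49 for the inner root sheath list. With the dye term removed the inner root sheath deviations were −0.93, 1.21 and −0.22.

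Some keratin-associated proteins, among them the Krtap19 family on chromosome 16, were lowest in sample 3 in place of sample 1. Krtap16-3 was at 12.33, 13.11 and 10.45, and Krtap19-3 at 10.21, 10.79 and 8.20. Krtap19-2 was at 9.72, 9.83 and 7.61, and Krtap19-4 at 9.43, 9.44 and 7.44, the last value near the floor. For these genes samples 1 and 2 were high and sample 3 was low, a 6.04-fold difference between the highest and the lowest for Krtap19-3. All 7 measured genes of the Krtap19 family and Krtap16-3 were lowest in sample 3, with median deviations of 0.37, 0.89 and −1.40. The other 13 measured Krtap genes of chromosome 16 had deviations of −0.48, 1.00 and −0.40, with 7 of the 13 lowest in sample 3 and 6 in sample 1, and 14 of chromosome 11 had −0.69, 1.05 and −0.25, with 2 lowest in sample 3. Krtap28-13 on chromosome 1 and Krtap12-1 on chromosome 10 were lowest in sample 3 too. In the GC-fed samples of the same arrays Krtap19-3 was at 10.42, 8.32 and 8.29, and Krtap19-4 at 9.60, 7.27 and 7.43, so among the 6 samples before SDS 3 were high and 3 low with no value between. After SDS the 4 control-fed samples of Krtap19-3 were at 12.51, 11.61, 10.95 and 11.08. Members of the Krtap19 family are close copies, and whether each probe reads 1 gene was not tested.

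**Figure D4:**
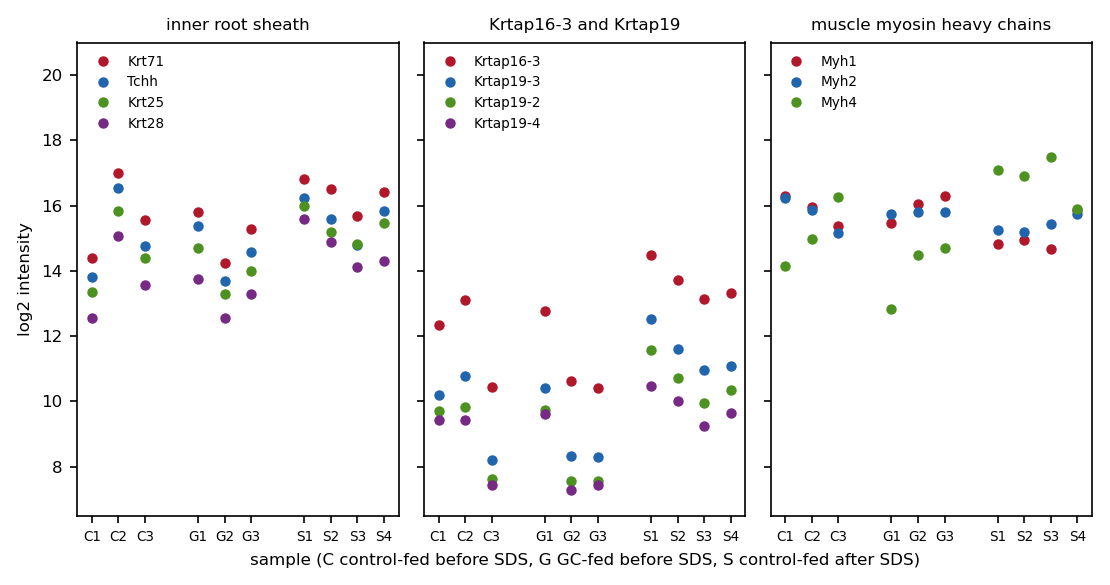
Log2 intensity (vertical axis) of inner root sheath genes, of Krtap16-3 and Krtap19 genes and of 3 muscle myosin heavy chains in each control-fed sample before SDS (C), GC-fed sample before SDS (G) and control-fed sample after SDS (S). Krt71 peaks in C2 at 17.01, Krtap19-3 is low in C3, G2 and G3 at 8.20, 8.32 and 8.29, and Myh4 is highest of the control-fed samples before SDS in C3 at 16.26, where Myh1 and Myh2 are lowest.

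Muscle myosin heavy chains differed in which sample was highest. Myh4, the heavy chain of the fastest fibres, was at 14.14, 14.98 and 16.26, a 4.34-fold difference. Myh1 was at 16.29, 15.97 and 15.39 and Myh2 at 16.22, 15.86 and 15.16. The sample highest in Myh4 was the lowest in both of the others. On the whole skeletal muscle list 16 of 25 measured genes were lowest in sample 3, with median deviations of 0.12, 0.01 and −0.13. In GC-fed samples Myh4 was at 12.84, 14.48 and 14.69, Myh1 at 15.47, 16.05 and 16.30 and Myh2 at 15.74, 15.79 and 15.80. There all 3 genes were lowest in sample 1 and highest in sample 3, so the opposed order was not seen in GC-fed skin. After SDS Myh4 was at 17.08, 16.91, 17.49 and 15.91 in control-fed skin, on the other slide.

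Saa3, Spp1, Defb7 and Crym were other genes among the 40 widest. Saa3, an acute phase protein made by macrophages and epithelia, was at 9.45, 11.74 and 9.95. Spp1, osteopontin, was at 12.12, 13.70 and 11.70. In both of these sample 2 was the highest. Defb7, a beta-defensin, went another way at 8.45, 8.29 and 10.37, high in sample 3. Crym, a thyroid hormone binding protein expressed in the follicle, was at 10.77, 12.76 and 11.17.

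Some of the widest spreads came from spots in which both channels of 1 array moved together. Polg, the mitochondrial DNA polymerase, was at 9.73, 9.74 and 6.30 in control-fed samples and at 9.78, 9.77 and 7.24 in the GC-fed samples of the same arrays. Hectd2, a ubiquitin ligase, was at 8.14, 8.05 and 5.68 and, in GC-fed samples, at 8.01, 8.12 and 5.77. The values of 6.30 and 5.68, each from 1 sample, lie below 6.57, the lowest mean over 3 samples of the genes that no sample detected. The probes of Polg and Hectd2 were nonetheless flagged well above background in all 3 samples. Daam2, a formin, was at 10.21, 7.27 and 7.35, with 13.60, 7.23 and 7.33 in GC-fed skin, while its other 2 probes had means of 7.57 and 7.08. Array 3 was the low one for Polg and Hectd2, and array 1 the high one for Daam2. Deviations over 1 log2 unit in the same direction in both channels of an array occurred for 13 genes, 5 of them among the 39 with an SD over 1. Rab32, a small GTPase, and Slc4a7, a bicarbonate transporter, were among the 13 but also varied after SDS, with SDs of 1.40 and 1.98 over the 4 control-fed samples.

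**Figure D5:**
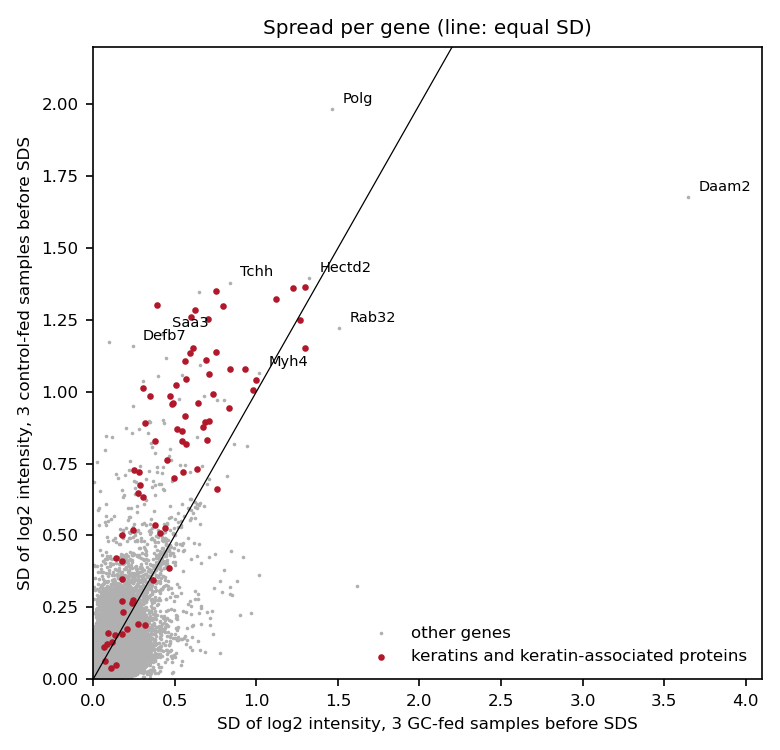
SD of log2 intensity of each of 16931 genes over the 3 control-fed samples (vertical axis) against that over the 3 GC-fed samples of the same arrays (horizontal axis); red points are keratins and keratin-associated proteins, and the line marks equal SDs. Most red points with an SD over 0.5 lie above the line, and Daam2 lies far below it.

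The same genes were then looked at in samples that had not been used to choose them. Over the 100 genes of widest spread the median SD was 0.95 in control-fed skin before SDS, 0.55 in GC-fed skin before SDS and 0.52 in control-fed skin after SDS, beside 0.09, 0.10 and 0.13 for all genes measured. Of the 40 widest, 38 had an SD in the GC-fed samples among the highest 5% of all genes. These include Polg, Daam2, Hectd2, Rab32 and Slc4a7, for which both channels of 1 array moved together. Their spread in GC-fed skin is not independent of that in control-fed skin. In GC-fed skin the inner root sheath list had median deviations of 0.47, −0.54 and 0.05, so the order of arrays was the reverse of that in control-fed skin, and Krt71 was at 15.80, 14.24 and 15.29. The GC-fed values were read on the same spots as the control-fed ones, in the other dye.

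Levels after SDS were compared with a limma separate-channel fit over all 7 arrays, with dye as a term and Benjamini-Hochberg adjustment over 17064 genes; the fit drops genes with a left-out spot on any array. In control-fed skin 2543 genes (14.9%) were called at an adjusted p under 0.05, 1141 higher (6.69%) and 1402 lower (8.22%) after SDS. SDS, slide and 2 more days of diet changed together, and their parts cannot be told apart. Of the 40 brightest genes 30 were tested and 0 were called, with a median difference of −0.06 log2 units; since these genes were ranked on control-fed samples of this comparison, the count is a description. Of the 100 brightest 86 were tested and 2 (2.33%) were called. On the scanner's processed signal 4 of the 40 brightest were called. The total depended on single arrays: without the first array before SDS 113 genes were called, without the second 1441, without the third 1087 and without the first array after SDS 1497. With the replicate number as a block 1650 were called.

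Of the 40 widest genes 4 were called, all higher after SDS, a share of 10% beside 6.69% of all genes, and 39 of the 40 differences were above 0 with a median of 1.12 log2 units. Since the rule used the control-fed samples of this comparison, these counts are a description. The number called was 18 without the second array before SDS, 0 without the first or the third array before SDS or the first after SDS, 1 without the second and 2 without the third array after SDS, and 1 with the replicate number as a block. The hair shaft and inner root sheath lists together had 38 genes tested, of which 14 were called higher and 0 lower (36.8%, beside 6.69% called higher and 8.22% called lower over all genes), with a median difference of 1.04. Several of these genes are among the 40 widest, and the lists were chosen with earlier results of these data known. The counts and p-values of the hair genes are therefore a description too. Krt35, a hair keratin, differed by 1.98 ± 0.40 (SE; limma adjusted p = 0.00858) and Krt85 by 1.47 ± 0.27 (limma adjusted p = 0.00573). Krt71 differed by 0.76 ± 0.50 and was not called (limma adjusted p = 0.309), and none of the 10 inner root sheath genes passed the test. The number of hair genes called higher was 0 without the first array before SDS, 25 without the second, 3 without the third, 5 without the first or the second array after SDS, 9 without the fourth, and 7 with dim probes kept or with the replicate number as a block.

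Before SDS, GC-fed skin set against control-fed skin gave 0 calls among 17064 genes (0%) in the same limma fit, with a lowest adjusted p of 1 and 82 genes at an unadjusted p under 0.05. Evenly spread p-values would put a share of 0.05 of the 17064 genes there, far more than 82, so the test was conservative in this fit. Its 0 calls do not show that the diets gave the same levels. The comparison gave 0 calls under each of the 12 alternative fits as well. For the 40 brightest genes the median difference, GC-fed minus control-fed, was −0.05, and for the 40 widest −0.45 with 2 of 40 above 0. Both sets were chosen on the control-fed values that enter this difference, so these are descriptions, and nothing is read from their direction. The median SE of a difference was 0.11 over all genes, 0.13 for the brightest 40 and 0.58 for the widest 40. Leaving out the second array turned the median difference of the hair lists from −0.41 to 0.20, and leaving out the first gave −1.46.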

How the data were processed

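Total RNA of dorsal skin was hybridised in pairs to Agilent mouse arrays, GC-fed against control-fed, with Cy5 and Cy3 exchanged between arrays; the dye of each sample was taken from the labels. Per the file headers, spot intensities were extracted with Feature Extraction 9.1.3.1, and the deposited scanner values hold mean spot and median background intensity of both dyes, a processed signal that the software had background-subtracted and dye-normalized, and flags. Each array had 43379 gene spots, of which 4 to 27 carried an outlier flag and were left out, and 0 were saturated. The number of arrays limits the precision.

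From these, with limma 3.58.1 in R 4.3.3, background was corrected by normexp (offset 50), dyes were balanced by loess within arrays and by Aquantile between the 7 arrays, and log2 intensities were taken per channel. The brightest probe over all channels stood for a gene. Of 41174 probes, 22951 were named by accession, 6659 by current and 3109 by older symbol, and 8455 kept the file's name. A separate-channel fit (4 groups and dye, probes well above background in at least 3 channels) was adjusted by Benjamini-Hochberg at 0.05. On simulated data with the real design and 17064 genes, the fit for the SDS comparison recovered 91% of genes changed by 1 and 99% of genes changed by 2 log2 units, with 10 false calls. The simulated noise was independent between genes and between channels. In the real data groups of genes moved together by sample, so these rates need not hold for them. Other steps used python 3.11.15 with pandas 2.3.3 and numpy 2.4.6.

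The authors' deposited gene-level intensities, floored at 200, served as an alternative; their columns name no dye, and comparison with the scanner values showed which dye each holds. How they were normalized is not given in the sources used here.

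Genes named are the 40 brightest and the 40 of widest SD (among genes well above background in at least 1 sample) with an ordinary symbol, up to 4 leading members of each marker list and undetected markers, Hr and Y chromosome genes. Other list members were named after their values were seen. Genes and lists were chosen with earlier results of these data known. Other array scalings, sources, filters, flags, left-out samples and a replicate block were tried as alternatives.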

Additional observations from a re-analysis of the deposited data

Results flagged for a closer look

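In 3 of 40 groups of 4 samples, 1 value stood apart from the others by Dixon's criterion. Chance gives this in about 1 in 20 groups where the groups are independent, which these need not be. All 3 were keratin-associated proteins in the same sample, control-fed skin after SDS, replicate 1. Krtap4-7 was at a log2 intensity of 13.48 there, with the nearest other sample at 12.08 and the lowest at 11.92. Krtap4-16 was at 12.45, with the others between 11.07 and 11.26, and Krtap9-1 at 12.67, with the others between 11.24 and 11.43. These genes lie in related clusters, and the 3 values are not independent.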

How the results depend on the processing

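The 39 genes with an SD over 1 became 393 without loess and between-array normalization and 441 on the scanner's processed signal, and 17 to 65 when 1 of the 3 samples was left out; the other alternatives gave 32 to 50. Of the 40 widest genes, 6 and 3 stayed among the 40 widest under those same scalings, and 20 to 29 with a sample left out. Of the 40 brightest, 28 to 40 stayed under the alternatives run. The 10712 undetected genes became 6244 by the more lenient flag. The SDS comparison gave 113 to 3650 calls with 1 array left out in place of 2543, and 1650 with the replicate number as a block. Replicate numbers did not pair the samples before and after SDS (correlations of deviations −0.298, 0.033 and 0.230), and the diet comparison gave 0 calls with the block and under the other fits. Keeping spots with an outlier flag was chosen after seeing the data. Some directions turned: the median diet difference of the hair lists went from −0.41 to 0.20 without the second array, the inner root sheath genes were mostly lowest in sample 3 (8 of 10) without loess and between-array normalization, and 27 of 43 ribosomal genes were highest in sample 3 in the authors' deposited values. The causes were not tested. With 3 samples, an SD is imprecise, and genes near the floor have only a bound.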
